A study of Rattus norvegicus with 6 samples.

Results

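Immediate early genes are the genes a cell transcribes within minutes of a stimulus, before any new protein is needed. Growth factor and stress signals run through MAP kinases to the factors SRF, ELK and CREB, which sit ready on the promoters of these genes. The products are mainly transcription factors, such as the FOS and JUN proteins that pair to form AP-1, together with enzymes and RNA-binding proteins that end the response. In kidney they are known for their sharp induction after ischaemia, toxins and handling of the tissue.

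The genes considered were Fos, Fosb, Jun, Junb, Egr1, Ier2, Ier3, Dusp1, Nr4a1 and Zfp36, chosen by name, 10 genes beside the 12269 named genes tested on the arrays. Probes were found through their RefSeq accession. In all 9 of the 10 members had a probe, with 12 probes between them, and 1 member, Fosb, matched none and has no value here. All 12 probes were well above background on each of the 6 arrays, so the filter on dim signals removed none of the 9.

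RNA came from the renal cortex of male Sprague-Dawley rats bought at an age of 5 weeks. The phenolphthalein group was 3 rats given 1000 mg/kg/day of phenolphthalein, a triphenylmethane laxative, for 4 weeks, and the vehicle group was 3 rats given corn oil for the same time. Each rat had its own single-colour Agilent array, and the number of arrays limits the precision. Values are log2 signals relative to the array's 75th percentile, so that 0 is that percentile. They compare one probe between arrays, not one gene with another.

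The 3 vehicle arrays shared a slide, phenolphthalein replicate 1 lay alone on another and phenolphthalein replicates 2 and 3 lay on the third, so the slide and the treatment cannot be told apart. Markers of the labelled tissue were detected: all 8 proximal tubule markers, all 6 podocyte markers and the 3 tested markers of the thick ascending limb were well above background on all 6 arrays. Of these, the podocyte markers Synpo and Wt1 and the limb marker Cldn16 lay below the 75th percentile in both groups, Synpo at -3.18 with phenolphthalein and -3.01 with vehicle. The 5 inner medulla markers were also detected on all of them. In bulk tissue, fewer cells of a type and less RNA per cell cannot be told apart.

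The promoters of the 4 members with the smallest p are shown first, Junb and Ier2 with higher means in phenolphthalein rats and Dusp1 and Zfp36 with lower ones. Each window runs from 250 bases before to 50 bases after the start in RefSeq on build GRCr8, 5′ to 3′ on the gene's strand. Capitals mark a match on either strand to the CArG box bound by SRF, the cyclic AMP response element TGACGTCA bound by CREB, the AP-1 sites TGACTCA and TGAGTCA, the ETS core CCGGAA, the EGR site GCGTGGGCG or the TATA box TATAAA.
Junb, chr19:40080876-40081175, + strand: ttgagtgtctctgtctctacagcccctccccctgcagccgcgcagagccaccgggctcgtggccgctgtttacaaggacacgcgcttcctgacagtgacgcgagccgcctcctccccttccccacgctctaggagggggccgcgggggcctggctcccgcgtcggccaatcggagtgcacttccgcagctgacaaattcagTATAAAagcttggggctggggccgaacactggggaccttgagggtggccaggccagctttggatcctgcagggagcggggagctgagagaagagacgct
Ier2, chr19:40399123-40399422, + strand: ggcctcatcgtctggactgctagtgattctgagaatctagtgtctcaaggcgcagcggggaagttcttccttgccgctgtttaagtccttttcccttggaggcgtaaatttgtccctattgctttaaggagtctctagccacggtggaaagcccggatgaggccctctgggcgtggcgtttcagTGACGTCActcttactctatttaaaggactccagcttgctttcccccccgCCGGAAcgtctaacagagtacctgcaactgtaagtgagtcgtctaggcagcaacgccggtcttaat
Dusp1, chr10:17184603-17184902, + strand: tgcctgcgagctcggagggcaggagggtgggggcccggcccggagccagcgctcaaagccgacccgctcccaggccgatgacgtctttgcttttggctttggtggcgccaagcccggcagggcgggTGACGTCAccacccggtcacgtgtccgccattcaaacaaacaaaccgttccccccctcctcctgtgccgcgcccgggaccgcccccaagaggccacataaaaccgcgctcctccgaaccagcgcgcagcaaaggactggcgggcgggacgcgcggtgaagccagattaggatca
Zfp36, chr1:92799059-92799358, - strand: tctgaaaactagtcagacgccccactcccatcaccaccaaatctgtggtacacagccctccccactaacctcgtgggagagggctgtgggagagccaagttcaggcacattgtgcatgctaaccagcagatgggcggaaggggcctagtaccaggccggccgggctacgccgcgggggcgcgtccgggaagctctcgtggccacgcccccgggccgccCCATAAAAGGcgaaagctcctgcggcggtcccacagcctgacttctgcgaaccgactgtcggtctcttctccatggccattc

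The reference table held a window for 7 of the 10 members. CArG boxes stood in 2 of these 7, Egr1 and Zfp36, against 1.64% of 33469 promoter windows of the same length. The full cyclic AMP response element also stood in 2, Ier2 and Dusp1, against 1.83% of all windows. The shorter TGACG, which the full element contains, stood in 5 against 21.2%. The ETS core was found in 2, Ier2 and Nr4a1 (15.0% of all windows), the TATA box in 2, Fosb and Junb (14.2%), and the Sp1 box GGGCGG in 3 (33.1%). The Fosb TATA match lay on the opposite strand with its first base at -180, and the Junb match on the gene's strand at -49. Neither the AP-1 sites (4.63%) nor the EGR site (0.544%) was found in the 7 windows. These matches describe the letters of the windows only. Junb and Ier2 shared the TGACG letters, which Egr1, Dusp1 and Nr4a1 also had.

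None of the 9 measured immediate early genes passed the test between phenolphthalein and vehicle. The adjusted p of limma over all 34417 items (named genes and unnamed probes) was between 0.497 and 0.875, and 0 items on the whole array passed at an adjusted p under 0.05 (0% in either direction). Of the 9 members, 3 had a higher mean in phenolphthalein rats and 6 a lower one, while 45.8% of all items had a higher mean. Their log2 fold changes ran from -0.39 to 0.32 with a median of -0.22, beside a median of -0.02 over all items. The members' median was -0.07 without vehicle replicate 1, -0.12 without vehicle replicate 2 and -0.10 with normexp background correction. At an unadjusted p under 0.05, 2 members stood higher and 0 lower, beside 3.91% of all items higher and 4.96% lower. The higher count was 1, with Ier2 lost, without any single vehicle array or without phenolphthalein replicate 2. The lower count was 2 (Dusp1 and Zfp36) without vehicle replicate 1 and 1 (Dusp1) without phenolphthalein replicate 1.

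**Figure D1:**
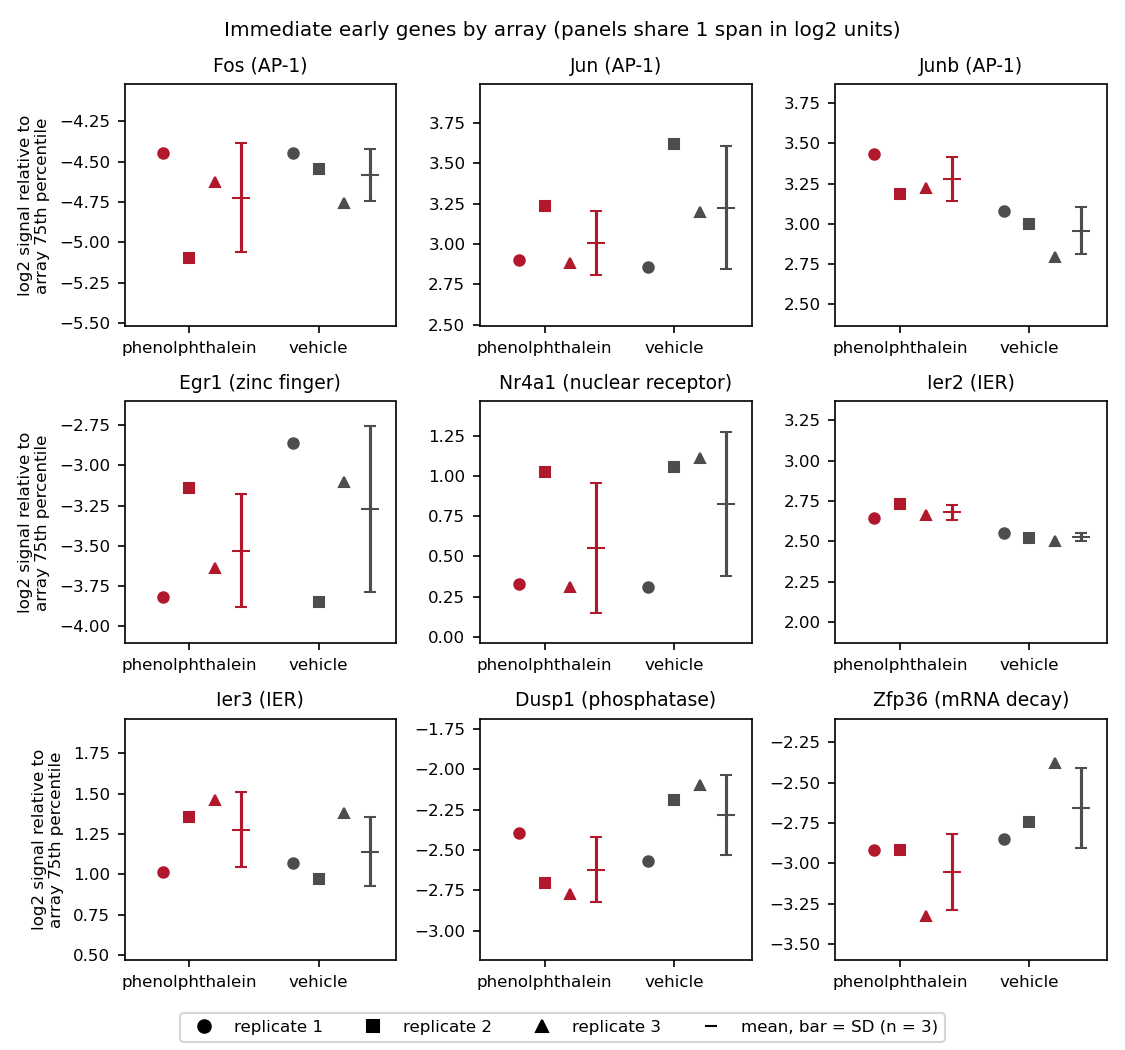
Log2 signal relative to the array's 75th percentile for each measured immediate early gene, phenolphthalein arrays in red on the left and vehicle arrays in grey on the right of each panel, with the mean and SD of 3 arrays; the panels have the same span and different offsets. The groups stand apart without overlap in Junb, Ier2 and Zfp36 and overlap in the other 6 genes.

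Among the AP-1 genes, Junb encodes a JUN protein that pairs with FOS proteins and often acts as a weaker activator than JUN. It stood at 3.43, 3.18 and 3.22 in the phenolphthalein rats, against 3.08, 3.00 and 2.79 in the vehicle rats. All 3 phenolphthalein arrays lay above all vehicle arrays. The means were 3.28 ± 0.14 with phenolphthalein and 2.96 ± 0.15 with vehicle (SD, n = 3 each). The log2 fold change was 0.32 (SE 0.10, 95% interval 0.09 to 0.56, limma unadjusted p = 0.0147, adjusted p = 0.497), or 1.25-fold with an interval of 1.06 to 1.47.

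The second Junb probe gave the same picture. It stood at -2.08, -2.09 and -1.92 with phenolphthalein, against -2.22, -2.43 and -2.39 with vehicle, again without overlap. Its group means differed by 0.32 log2 units. The probes of one gene share the RNA of each rat, so they are not separate replicates.

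Jun, the founding AP-1 subunit and the main target of the JNK kinases, stood at 2.90, 3.24 and 2.88 with phenolphthalein, against 2.86, 3.62 and 3.20 with vehicle. Vehicle replicate 1 was the lowest array and vehicle replicate 2 the highest, so the vehicle group spanned the other one. The difference was -0.22 (SE 0.19, interval -0.68 to 0.24, limma adjusted p = 0.768), and it was -0.02 without vehicle replicate 2. The second Jun probe had means of 1.39 ± 0.13 with phenolphthalein and 1.70 ± 0.30 with vehicle (SD, n = 3 each), a difference of -0.31.

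Fos, the classical partner of JUN in AP-1, was dim. The tested probe stood at -4.44, -5.10 and -4.62 with phenolphthalein, against -4.44, -4.54 and -4.76 with vehicle. Only phenolphthalein replicate 2 lay below the vehicle range. The log2 fold change was -0.14 (SE 0.22, interval -0.66 to 0.38, limma adjusted p = 0.875), and it turned to 0.048 without phenolphthalein replicate 2 and was -0.037 with normexp. The second Fos probe had a mean of -5.50 in each group and differed by -0.0011, so the probes gave no common difference. The interval of the tested probe covers folds of 0.631 to 1.31.

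Egr1, a zinc finger transcription factor driven by SRF, had the widest spread of the 9 genes. It stood at -3.82, -3.14 and -3.63 with phenolphthalein, against -2.86, -3.85 and -3.11 with vehicle. Vehicle arrays were both the highest and the lowest. The difference was -0.26 (SE 0.29, interval -0.95 to 0.43, limma adjusted p = 0.820), with values of -0.55 to -0.05 when single arrays were left out and -0.10 with normexp.

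Nr4a1, an orphan nuclear receptor also called Nur77, had a high and a low level that did not follow the groups. It stood at 0.33, 1.02 and 0.31 with phenolphthalein, against 0.31, 1.06 and 1.11 with vehicle. Phenolphthalein replicates 1 and 3 and vehicle replicate 1 were low, and the other 3 arrays were high. The difference was -0.27 (SE 0.27, interval -0.91 to 0.37, limma adjusted p = 0.794). It was -0.53 without vehicle replicate 1, -0.13 without vehicle replicate 3 and -0.17 with normexp. The same 3 arrays were also the lowest for both Jun probes. This held for some genes of the related lists read below, such as Dusp6 and Atf3, and not for others, such as Sgk1 and Per1.

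Of the small IER proteins, Ier2 is a nuclear regulator of transcription. It stood at 2.65, 2.73 and 2.66 with phenolphthalein, against 2.55, 2.52 and 2.50 with vehicle. The groups did not overlap, and the difference was small. The means were 2.68 ± 0.05 with phenolphthalein and 2.53 ± 0.03 with vehicle (SD, n = 3 each). The log2 fold change was 0.15 (SE 0.06, interval 0.02 to 0.28, limma unadjusted p = 0.0276, adjusted p = 0.529), or 1.11-fold.

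Ier3, known as IEX-1, is a stress-induced protein that modulates ERK signalling and survival. It stood at 1.01, 1.36 and 1.46 with phenolphthalein, against 1.07, 0.97 and 1.38 with vehicle. The groups overlapped over nearly their whole ranges. The difference was 0.13 (SE 0.15, interval -0.22 to 0.49, limma adjusted p = 0.817). It was 0.043 without phenolphthalein replicate 3 and 0.27 without phenolphthalein replicate 1.

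Zfp36 and Dusp1 both had lower means with phenolphthalein and neither passed the test. Zfp36 encodes tristetraprolin, which binds AU-rich elements and speeds the decay of cytokine and early gene mRNAs. It stood at -2.91, -2.92 and -3.32 with phenolphthalein, against -2.85, -2.74 and -2.38 with vehicle. All phenolphthalein arrays lay below all vehicle arrays, though phenolphthalein replicate 1 and vehicle replicate 1 nearly met. The log2 fold change was -0.39 (SE 0.18, interval -0.81 to 0.02, limma adjusted p = 0.585), the lowest of the 9 genes. It was -0.25 without vehicle replicate 3, the highest array, -0.26 without phenolphthalein replicate 3, the lowest, and -0.25 with normexp.

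Dusp1, or MKP-1, is the nuclear phosphatase that switches off p38, JNK and ERK. It stood at -2.39, -2.70 and -2.77 with phenolphthalein, against -2.57, -2.19 and -2.10 with vehicle. Phenolphthalein replicates 2 and 3 lay below every vehicle array, and replicate 1 lay within the vehicle range. The difference was -0.34 (SE 0.16, interval -0.73 to 0.05, limma adjusted p = 0.613).

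In all, 3 of the 9 members had groups that did not overlap, 2 higher and 1 lower, beside 15.7% of all items (6.58% higher and 9.1% lower). Junb stayed at an unadjusted p under 0.05 in each of the 17 alternatives run, with p from 0.0064 to 0.047, and Ier2 in 10 of 17. No alternative brought a member past the adjusted threshold (smallest limma adjusted p = 0.455).

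**Figure D2:**
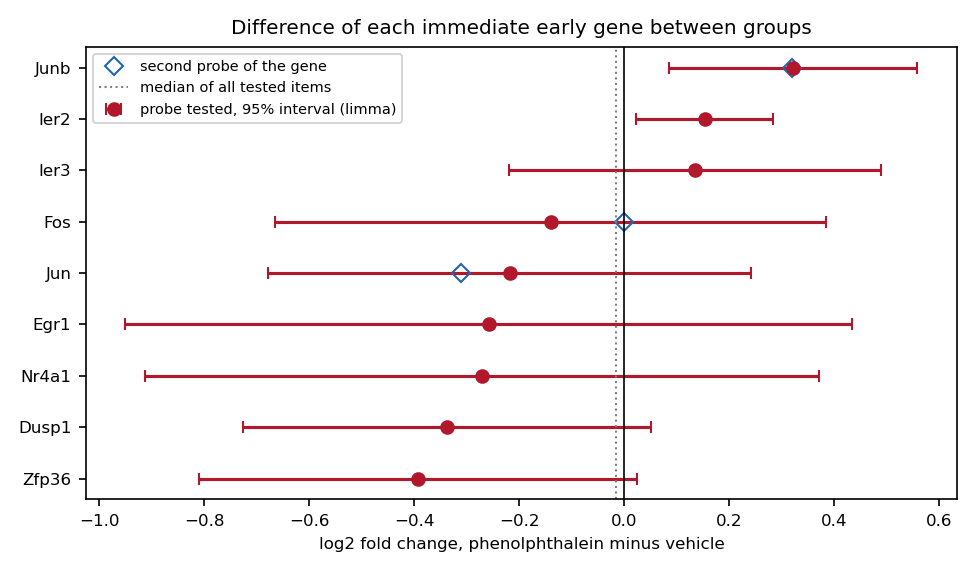
Log2 fold change of each measured immediate early gene, phenolphthalein minus vehicle, with the 95% interval of limma, and the second probe of Fos, Jun and Junb as open diamonds. The intervals of Junb (0.09 to 0.56) and Ier2 (0.02 to 0.28) lie above 0 before adjustment, and those of the other 7 genes include it.

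The spread between rats of one group was wide for most of these genes. The within-group SD had a median of 0.24 log2 units over the 9 members, beside 0.15 over all items, and 7 of the 9 lay above that value. It was 0.44 for Egr1 and 0.43 for Nr4a1, larger than in 89.2% and 88.5% of all items. Dim probes vary more, with a median SD of 0.21 for items below the 75th percentile and 0.09 for those above it. Nr4a1 and Jun (SD 0.30) lay above that percentile on every array. Ier2 was the exception in the other direction, with an SD of 0.04, which only 2.47% of items went below.

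The members did not share one order of the arrays. Vehicle replicate 3 was the highest array for Nr4a1, Dusp1 and Zfp36 and the lowest for Junb and Ier2. Vehicle replicate 1 was the highest for Fos and Egr1 and the lowest for Jun and Nr4a1. Vehicle replicate 2 was the highest for Jun and the lowest for Egr1 and Ier3. Dusp1 and Zfp36 had vehicle replicates 3 and 2 highest and phenolphthalein replicate 3 lowest. Each of the 6 arrays was the highest for at least 1 member. Phenolphthalein replicate 1, the array on its own slide, was the highest for Junb and the lowest for 0 members. Averaged over the 9 members, the level relative to each gene's mean was -0.07, 0.03 and -0.13 with phenolphthalein, against -0.02, 0.05 and 0.14 with vehicle.

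**Figure D3:**
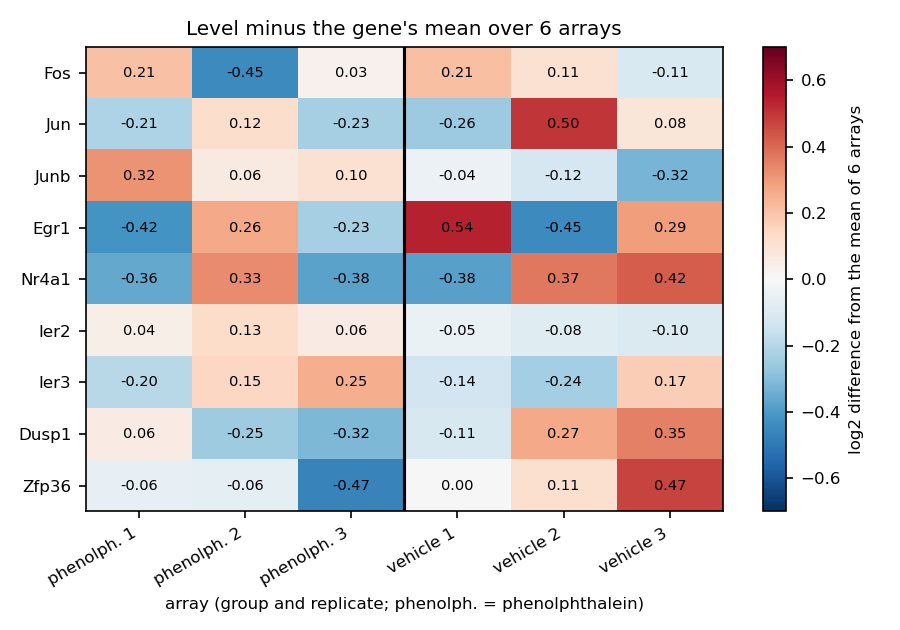
Level of each measured immediate early gene on each array minus its mean over the 6 arrays, in log2 units, phenolphthalein arrays left of the line and vehicle arrays right of it. Red and blue squares stand side by side on every array, and Ier2 stays between -0.10 and 0.13 while Egr1 runs from -0.45 to 0.54.

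The named genes outside the list whose centred values over the 6 arrays lay closest to that mean pattern were Dysf, Nxt1, Oaz1, Bpgm and Cables1. Their root-mean-square difference from it was 0.023 to 0.030 log2 units, and their own log2 fold changes were -0.13 to -0.08. These genes were picked for that closeness among all named genes, so the small differences and the fold changes follow from the choice. The members, which were not picked this way, lay between 0.15 (Ier2) and 0.36 (Egr1) from their own mean. Cables1 had a fold change of 0.18 when the median of its probes was used.

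The relatives, regulators and pathway of these genes were read from 8 gene lists with 118 genes, of which 98 were tested. No gene of the 98 passed at an adjusted p under 0.05 (limma, smallest adjusted p = 0.433). In all 44 had a higher and 54 a lower mean with phenolphthalein, near the 45.8% of all items with a higher mean. The median log2 fold change was -0.03. An unadjusted p under 0.05 was reached by 5 with higher and 6 with lower means, or 11.2% beside 8.87% of all items. A further 7 genes had probes that were too dim to test, among them Fosl1, Egr2, Egr4 and Nr4a3, inducible relatives of the members that were well above background on at most 1 array.

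Among the AP-1 partners, an unadjusted p under 0.05 was reached by 1 of 10 tested genes, Mafk, beside 8.87% of all items. Mafk, a small MAF protein, stood at -1.52, -1.61 and -1.64 with phenolphthalein, against -1.84, -1.88 and -2.00 with vehicle. Its groups did not overlap and its log2 fold change was 0.31 (SE 0.09, limma adjusted p = 0.477). The stress factor Atf3 was at -0.24 (SE 0.26), Batf3 at -0.27 and Maff at 0.32. Without single arrays these ran from -0.45 to -0.02 for Atf3, -0.43 to -0.10 for Batf3 and 0.11 to 0.43 for Maff.

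Of 4 tested relatives of EGR and NR4A and their NAB corepressors, 3 had higher means. Nab2, the corepressor that binds EGR1 and limits its activity, stood at 1.63, 1.27 and 1.48 with phenolphthalein, against 1.18, 1.20 and 1.01 with vehicle. The groups did not overlap, and the difference was 0.33 (SE 0.11, limma adjusted p = 0.505). With the median of its probes it was 0.47 at a limma unadjusted p of 0.0504. Over the 17 alternatives Nab2 was at an unadjusted p under 0.05 in 15. Nab1 was at 0.22 (SE 0.11), but at 0.043 with the median of its probes. Nr4a2 was at 0.11 (SE 0.11), or 0.041 to 0.20 without single arrays.

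Among SRF, its ternary complex partners and the CREB family, 4 of 8 tested genes had higher and 4 lower means. Crem, whose short forms repress cyclic AMP response elements, stood at 0.84, 1.07 and 1.02 with phenolphthalein, against 1.24, 1.24 and 1.39 with vehicle. Its groups did not overlap and its difference was -0.31 (SE 0.09, limma adjusted p = 0.472). Atf1 was at 0.11 and Elk4 at 0.08, and these turned to -0.029 and -0.019 with the median of their probes.

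Of 11 tested MAPK phosphatases and Sprouty inhibitors, 4 had higher and 7 lower means. In limma 0 were at an unadjusted p under 0.05, beside 8.87% of all items. The smallest p belonged to Spry2 (-0.18, SE 0.09), Dusp8 (-0.14, SE 0.07, and -0.034 with the median of its probes) and Dusp16 (-0.12, and 0.023 with the median of its probes). Dusp6, the ERK phosphatase that follows ERK activity, was at -0.13 (SE 0.29), and at 0.11 without vehicle replicate 2. The AU-rich element binding list had 6 tested genes, 5 of them with higher means, with Hnrnpd at 0.18 (SE 0.08), the Zfp36 relative Zfp36l2 at 0.14 (SE 0.08) and Tia1 at 0.12 (SE 0.10). With the median of its probes Zfp36l2 was at 0.0069. Both tested IER relatives had higher means, Ier5 at 0.11 (0.044 to 0.19 without single arrays) and Ier5l at 0.06, and the value of Ier5l was -0.12 without phenolphthalein replicate 2.

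Among 37 tested other primary response genes, an unadjusted p under 0.05 was reached by 3 with higher and 2 with lower means. Over all items these shares were 3.91% and 4.96%. Klf10, a TGF-beta-inducible zinc finger repressor, stood at 2.46, 2.34 and 2.62 with phenolphthalein, against 2.07, 1.76 and 1.61 with vehicle. The groups did not overlap and the difference was 0.66 (SE 0.13, limma adjusted p = 0.433), the smallest p of the 98 genes. Id1, a BMP-responsive inhibitor of basic helix-loop-helix factors, stood at 1.46, 1.40 and 1.49 with phenolphthalein, against 0.94, 1.15 and 0.56 with vehicle, a difference of 0.57 (SE 0.15, limma adjusted p = 0.458).

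Ppp1r15a, the GADD34 subunit that reverses the translation block of the integrated stress response, was at 0.30 (SE 0.08, limma adjusted p = 0.466). The lower pair was Klf2, a flow-responsive endothelial factor, at -0.45 (SE 0.13), and Arc, an activity-regulated gene best known from neurons, at -0.72 (SE 0.27). Klf10, Id1, Ppp1r15a and Klf2 kept an unadjusted p under 0.05 in all 17 alternatives, and Arc in 11. Klf2, Arc, Atf3, Dusp6, Per1 and Sgk1 were named after their values were seen. Per1 (-0.62, SE 0.40) and Sgk1 (-0.61, SE 0.49), both also induced by corticosteroids, had wide errors. Per1 was at -0.34 with the median of its probes and at -0.25 without phenolphthalein replicate 1. Sgk1 stood at 1.80, 3.45 and 2.00 with phenolphthalein, against 2.79, 2.54 and 3.76 with vehicle, and the groups overlapped. Its difference was -0.25 without vehicle replicate 3 and -1.13 without phenolphthalein replicate 2.

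In the MAPK pathway from receptor to kinase, 5 of 20 tested genes had higher and 15 lower means, with a median of -0.07. Over all items 45.8% had higher means. An unadjusted p under 0.05 was reached by 0 with higher and 3 with lower means, beside 3.91% and 4.96% of all items. Mapk9, which encodes the kinase JNK2, was at -0.22 (SE 0.06, limma adjusted p = 0.472), Mapkapk2, the p38 substrate kinase that controls tristetraprolin, at -0.19 (SE 0.07), and Map2k1, which encodes the ERK-activating kinase MEK1, at -0.14 (SE 0.06). With the median of their probes Mapk9 was at -0.12 and Mapkapk2 at -0.12, both above that p. Over the 17 alternatives Mapk9 was under it in 16, Mapkapk2 in 9 and Map2k1 in 7.

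**Figure D4:**
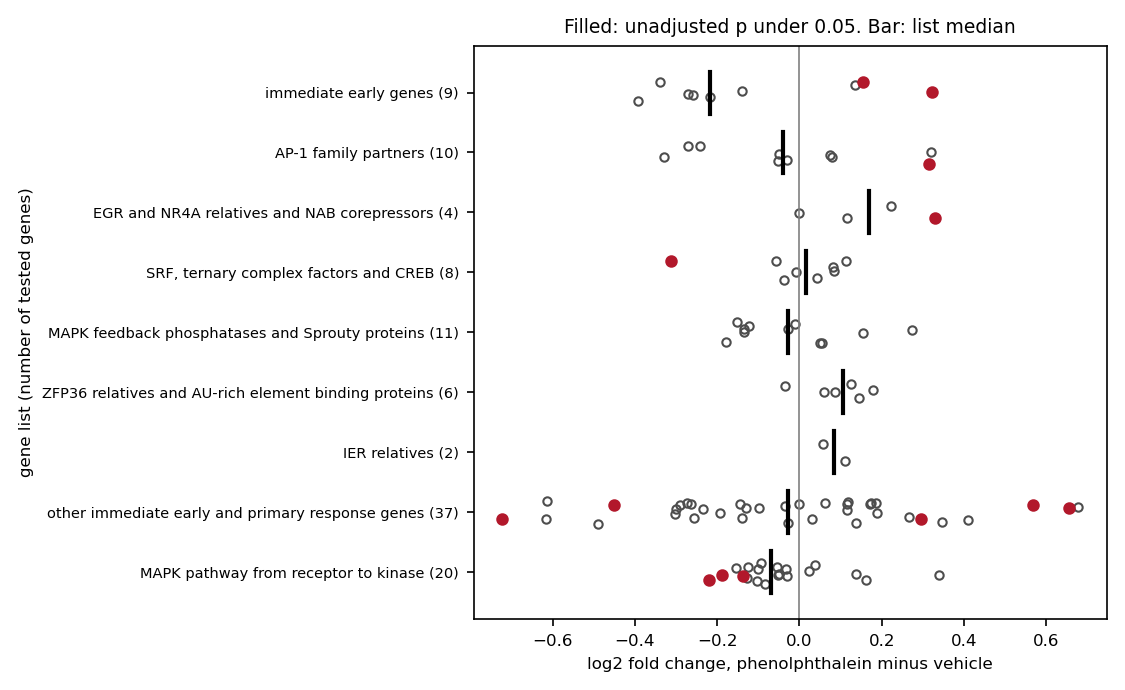
Log2 fold change, phenolphthalein minus vehicle, of each tested gene in the immediate early list (top) and in 8 related lists, with filled points for an unadjusted p under 0.05 and a bar at each list's median. List medians lie between -0.22 (immediate early genes) and 0.17 (EGR and NR4A relatives and NAB corepressors), and points of most lists stand on both sides of 0.

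Macrophage, monocyte, T and NK cell markers mostly had lower means with phenolphthalein, 12 of 13 tested. Of these 13, 0 passed the adjusted threshold (smallest limma adjusted p = 0.433). At an unadjusted p under 0.05, 9 of the 13 were lower, beside 4.96% of all items. Neutrophil markers did not share this direction, with 2 of 3 tested higher and 1 lower, and 0 were at that level. Of 7 tested macrophage and monocyte markers, 6 had lower means with phenolphthalein, and their summed signal, in multiples of the array's 75th percentile, was 90.1 to 96.8 with phenolphthalein and 112 to 146 with vehicle. The exception was Mrc1, the mannose receptor of resident macrophages, at -1.31 with phenolphthalein and -2.41 with vehicle (SE of the difference 0.23, limma adjusted p = 0.433). All 6 T and NK cell markers had lower means, with sums of 1.43 to 1.91 with phenolphthalein and 2.15 to 2.63 with vehicle. Each of these 13 markers was well above background on all arrays. Such sums weigh the brightest probes most, here Lyz2 (log2 mean 6.11 with phenolphthalein and 6.54 with vehicle) among the macrophage and monocyte markers. Taken singly, 5 of those 7 markers were lower without overlap and 1 was higher, beside 9.1% and 6.58% of all items. Of 6 vascular smooth muscle and mesangial markers, 5 had higher means, but the sums overlapped, 25.8 to 28.8 with phenolphthalein and 22.9 to 32.1 with vehicle. The 7 tested endothelial markers had a median of 0.01 and sums of 73.0 to 84.2 with phenolphthalein and 77.3 to 86.7 with vehicle. The part of these cells in the values of Zfp36, Dusp1, Junb and Ier2 was not tested.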

How the data were processed

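The authors scanned the arrays with Agilent Feature Extraction 10.7.1.1, per the file headers; the submitters' processing notes name version 10.7. The deposited intensity is background-subtracted and detrended within each array, with no normalization between arrays. The deposited value table is a ratio, the intensity over each array's 75th percentile by comparison with the scanner files. Each of its 6 columns matched another replicate of the same group, so replicate names, taken here from the scanner files, are uncertain within groups and the groups are not.

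Log2 intensity minus the log2 75th percentile of 61657 non-control probes was analysed. Outlier spots (2 to 14 per array) were set to missing, and no spot was saturated. Between 64.8% and 72.1% of probes per array were well above background. Probes were named by RefSeq accession through the GRCr8 gene table (27460 with a symbol, 34197 without). Probes well above background on at least 3 arrays were kept, and a gene's brightest probe stood for it. This left 34417 items. Group differences were fitted with limma 3.58.1 under R 4.3.3 (intensity trend, two-sided, Benjamini-Hochberg over all items, threshold 0.05), on code tested on simulated data. Named genes were the 10 members, up to 3 genes per list with the smallest p, and the 5 closest to the members' mean pattern. One gene of the MAPK pathway list is not reported here and is left out of that list's values. Members and lists were chosen with earlier results of these data known. The labels call the samples biological replicates of separate rats. Same-numbered rats did not deviate together (correlations -0.0061, -0.015 and 0.025). The files lack the mean spot signal, so normexp (offset 50) used the median.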

Additional observations from a re-analysis of the deposited data

How the results depend on the processing

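In total 17 alternatives were run, covering background correction, normalization, filters, probe choice, the fit, the value table, blocks and each array left out. No member passed the adjusted threshold in any of them. Of 153 member values, 152 kept their direction, and the exception was Fos, at 0.048 without phenolphthalein replicate 2 and -0.28 to 0.048 over the arrays left out. Part of that count was fixed. The changed filters, the fit without an intensity trend, the kept outlier spots and the replicate block left each member's log2 fold change unchanged. The count of members at an unadjusted p under 0.05 in either direction, which was 2, was 1 with normexp, with no intensity trend and with the replicate block, and 1 to 3 when 1 array was left out. Ier2 was the member lost with each of those 3 settings, with p of 0.053, 0.06 and 0.057. The replicate numbers pair nothing in the labels, and the replicate block brought 0 items past the threshold. Over the whole array, 0 to 1 items passed on the higher side and 0 to 1 on the lower side when single arrays were dropped. A random slide effect left 0 items past it and Junb at 0.33. No slide held arrays of both groups, so this setting cannot separate the slide from the treatment.

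Of 629 values of 37 other named genes, 8 changed direction, and the cause was not tested. With the median of a gene's probes they were Atf1 (-0.029), Elk4 (-0.019), Dusp16 (0.023) and Cables1 (0.18). Ier5l was at -0.00091 without vehicle replicate 3 and at -0.12 without phenolphthalein replicate 2, in a range of -0.12 to 0.22, and Dusp6 at 0.11 without vehicle replicate 2 or phenolphthalein replicate 1, in a range of -0.35 to 0.11. Fos, Egr1, Zfp36 and Dusp1 lie well below the array's 75th percentile, where spots vary more, and 3 arrays per group limit what can be shown.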

Other observations

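Junb and Ier2, the 2 members with the smallest p, both lie on rat chromosome 19 in the GRCr8 gene order, which was looked up after their values were seen. Between them lie 22 annotated genes, 17 of them protein-coding, and 14 had a tested probe. Of these 14, 2 had higher and 12 lower means with phenolphthalein, while 45.8% of all items had higher means. The median log2 fold change was -0.05, and 0 genes reached an unadjusted p under 0.05 on the higher side, beside 3.91% of all items. On the lower side 2 did, beside 4.96% of all items. The 2 that were lower at that level were Lyl1, a basic helix-loop-helix factor of blood and endothelial cells, at -0.38 (SE 0.09, limma adjusted p = 0.434), and the peroxiredoxin Prdx2 at -0.14 (SE 0.06, limma adjusted p = 0.555). Lyl1 stayed at that level in 16 of 17 alternatives and Prdx2 in 8. Klf1, the erythroid Kruppel-like factor, was at -0.63 (SE 0.30), and its probe was dim. It was at -0.24 with normexp, -0.28 with the median of its probes and -0.31 without vehicle replicate 2. Lyl1, Prdx2 and Klf1 were named after their values were seen.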
